A study of Mus musculus with 6 samples.

Results

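The genes described here carry glucose into brain cells, split it to pyruvate, exchange it with lactate and pass pyruvate into the mitochondrial pyruvate dehydrogenase complex. They were given as a list of 33 symbols (glucose transporters, glycolytic enzymes, lactate dehydrogenases and monocarboxylate transporters, mitochondrial pyruvate carriers, and pyruvate dehydrogenase subunits and kinases). All 33 were matched to rows of the deposited table through their Ensembl identifiers in GENCODE mouse M21, out of 46078 rows, and all 33 had a mean of at least 10 and so belonged to the 17605 genes tested. The member with the lowest mean, Hk2, stood at 122, so no member lay near that limit.

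The study sequenced RNA from the striatum of 3 Shank3 TG mice and 3 WT mice, to ask which pathways differ when Shank3, a scaffold protein of the excitatory postsynapse, is overexpressed. Both groups were C57BL/6J mice aged 12 weeks, male by the study's methods, with 1 library per mouse and no treatment named. TG mice carry an EGFP-Shank3 transgene, and the values per gene do not tell transgene reads from those of the endogenous gene. P values set the difference between the groups against the spread between these mice. The labels do not say whether mice shared a litter or a day, so it is not known how independent the mice are.

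In glycolysis, glucose that enters through the GLUT transporters is phosphorylated by hexokinase and cut into triose phosphates, whose oxidation yields ATP, NADH and pyruvate. Lactate dehydrogenase interconverts pyruvate and lactate, monocarboxylate transporters move lactate across membranes, and in the brain astrocytes are held to release lactate that neurons can take up. Pyruvate crosses the inner mitochondrial membrane through the MPC1-MPC2 carrier and is oxidized by the pyruvate dehydrogenase complex, which its kinases switch off.

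The libraries held 27689589 to 36647626 counted reads, and the members took between 1.02% and 1.07% of them in each mouse. Normalized read counts of Shank3 were 26044 to 29891 in TG mice and 12918 to 13865 in WT mice (log2 fold change 1.05, limma with Benjamini-Hochberg adjustment, adjusted P = 7.04e-05), which matches the genotype labels. Medium spiny neuron markers, which define the striatum, were present in every library, led by Pde10a at 31505 to 45595. Their summed level was lowest in TG mouse 1 (123534, against 144709 and 172888 in the other TG mice and 149108 to 171967 in WT mice). TG mouse 1 also stood apart in choroid plexus markers, with a sum of 15479 against 1901 and 638 in the other TG mice and 554 to 909 in WT mice. Striatal tissue holds many cell types, and fewer cells of a type and less RNA per cell cannot be told apart in it.

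No member differed between Shank3 TG and WT striatum at an adjusted P under 0.05 (limma, Benjamini-Hochberg, adjusted P between 0.971 and 0.993), where 1 gene, Shank3, was called higher and 0 lower over all genes tested (0.00568%). DESeq2, edgeR and limma-voom also called 0 of the 33, where DESeq2 called 0.0398% of all genes. Only Pgk1 and Dld passed an unadjusted limma P of 0.05, which is 6.06% of the members beside 4.31% of all genes tested. Both were higher in TG mice (background 1.98%), and no member was lower at that level (background 2.33%). edgeR and limma-voom gave 2 members at that level, the same genes (beside 4.38% and 4.24% of all genes), and DESeq2 gave 0 (beside 2.45%). The differences were small in either direction, from -0.10 for Hk2 to 0.19 for Slc16a3 on the log2 scale. Fold changes here are differences of log2(normalized read count + 1), TG minus WT, where a normalized read count is the number of reads of a gene divided by the size factor of the library.

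Small shifts upward were more frequent than downward ones. Of the 33 members, 26 had a higher mean in TG mice and 7 a lower one, with a median log2 fold change of 0.05 (3.64%) beside a median of -0.0018 over all genes tested. The share of members above 0 was 78.8%, against 49.2% of all genes tested. Abundant genes as a whole leaned the same way, as among the 6238 genes whose mean reached 1000 there were 55% above 0, with a median of 0.0083. Of the 28 members in that range 23 were above 0. The median over members, relative to the WT mean, was 0.0501, 0.0339 and 0.0433 in TG mice 1, 2 and 3, and -0.0034, 0.0132 and 0.0038 in WT mice 1, 2 and 3. The TG medians thus lay above those of the WT mice, by a few hundredths of a log2 unit. Members of a pathway share their libraries and are not independent, and this shift of the median was not tested.

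**Figure D1:**
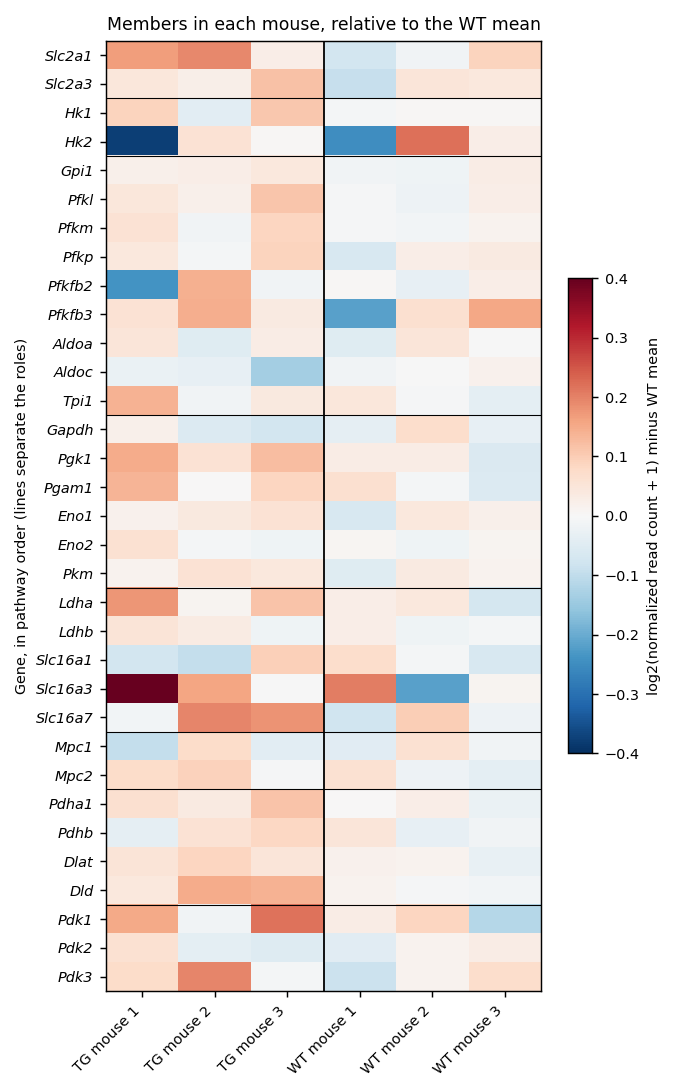
Each row is a member in pathway order, each column a mouse, and the color gives log2(normalized read count + 1) minus the mean of the 3 WT mice, on a scale that ends at 0.4 in either direction. TG columns hold the highest value of 28 members (8, 9 and 11 in TG mice 1, 2 and 3) and WT columns that of 5, with the strongest colors in the low-count genes Hk2 and Slc16a3.

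The members were measured more precisely than most genes. Their median SD between mice of 1 group was 0.05 on the log2 scale, against 0.11 over all genes tested. A mean of at least 1000 was reached by 28 of the 33 members and by 6238 of the 17605 genes tested. The precision was not compared with genes of like level. The 95% interval of the fold change lay within 1.2-fold in both directions for 28 of 33 members (84.8%), against 49.2% of all genes tested. For those 28 genes a change beyond 1.2-fold lies outside the interval of these mice. The 5 with wider intervals were Hk2, Pfkfb3, Slc16a3, Slc16a7 and Pdk1, of which Hk2, Slc16a3 and Slc16a7 are the members with the lowest levels per length. No fitted difference exceeded 1.2-fold.

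**Figure D2:**
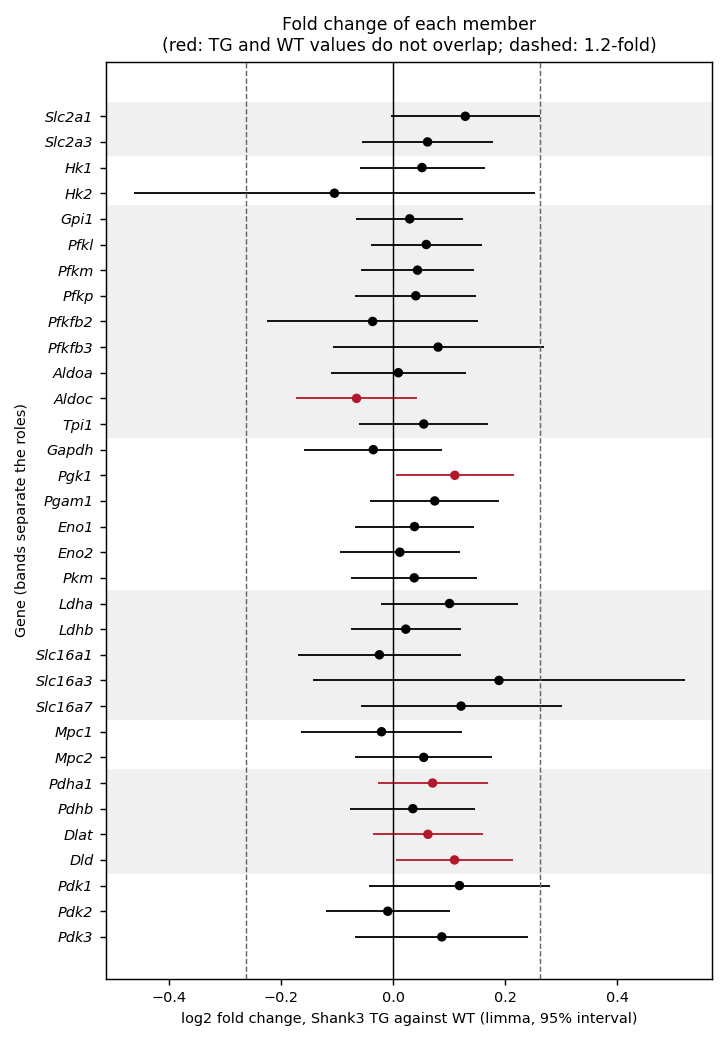
Points give the log2 fold change of each member, TG against WT, and lines its 95% interval from limma, with bands that separate the roles and dashed lines at 1.2-fold. Red marks the 5 members whose TG and WT values do not overlap (Pgk1, Pdha1, Dlat and Dld higher, Aldoc lower), and only the intervals of Pgk1 and Dld leave out 0.

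The 3 TG values lay wholly above or wholly below the 3 WT values for 5 members (15.2%), against 10.1% of all genes tested. Of these 4 were higher in TG mice (background 5.06%) and 1, Aldoc, was lower (background 5.05%). With 3 mice against 3 an exact permutation test cannot give a two-sided P below 0.1.

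Promoters of 7 members are shown because they set the genes of the largest statistics beside those of the lactate dehydrogenase pair: Pgk1 and Dld have the smallest P values, Pdha1, Dlat and Aldoc also do not overlap between the groups, and Ldha and Ldhb encode subunits that are held to favor opposite directions of the lactate reaction. Each run is the RefSeq sequence (GRCm38.p6) of the 250 bases before a start site (for Aldoc the 145 of them that lie before the first exon in GENCODE M21), read 5′ to 3′ on the strand of the gene. Capitals mark ACGTG, the core letters of a hypoxia response element and part of the CACGTG E-box, and GCGTG, a variant of that core, on either strand, with overlapping matches joined into 1 run. The windows are chrX:106186850-106187099 (plus strand) for Pgk1, chr12:31351472-31351721 (minus strand) for Dld, chrX:160138431-160138680 (minus strand) for Pdha1, chr9:50659781-50660030 (minus strand) for Dlat, chr11:78322823-78322967 (plus strand) for Aldoc, chr7:46845554-46845803 (plus strand) for Ldha and chr6:142507958-142508207 (minus strand) for Ldhb. The Ldha window lies inside the span that GENCODE M21 gives the gene, and the other 6 lie upstream of theirs.
Pgk1: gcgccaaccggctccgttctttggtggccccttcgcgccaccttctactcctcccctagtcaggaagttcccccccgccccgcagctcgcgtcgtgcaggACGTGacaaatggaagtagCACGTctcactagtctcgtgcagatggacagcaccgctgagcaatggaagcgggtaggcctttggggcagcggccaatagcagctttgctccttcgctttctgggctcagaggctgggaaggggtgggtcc
Dld: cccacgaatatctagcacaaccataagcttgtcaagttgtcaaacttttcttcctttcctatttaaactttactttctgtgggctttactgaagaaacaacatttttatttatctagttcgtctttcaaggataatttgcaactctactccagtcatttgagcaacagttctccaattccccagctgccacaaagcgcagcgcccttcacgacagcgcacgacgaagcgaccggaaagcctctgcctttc
Pdha1: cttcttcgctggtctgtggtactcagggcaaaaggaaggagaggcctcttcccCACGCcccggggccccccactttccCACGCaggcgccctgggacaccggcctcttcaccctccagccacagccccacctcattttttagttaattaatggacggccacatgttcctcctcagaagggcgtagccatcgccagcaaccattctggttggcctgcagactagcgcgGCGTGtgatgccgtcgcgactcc
Dlat: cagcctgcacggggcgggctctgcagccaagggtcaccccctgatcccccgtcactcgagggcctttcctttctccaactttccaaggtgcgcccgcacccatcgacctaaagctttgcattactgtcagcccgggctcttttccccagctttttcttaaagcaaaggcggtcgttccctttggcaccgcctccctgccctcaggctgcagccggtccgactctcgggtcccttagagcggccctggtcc
Aldoc: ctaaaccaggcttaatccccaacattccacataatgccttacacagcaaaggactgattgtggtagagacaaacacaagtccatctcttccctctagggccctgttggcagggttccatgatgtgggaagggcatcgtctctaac
Ldha: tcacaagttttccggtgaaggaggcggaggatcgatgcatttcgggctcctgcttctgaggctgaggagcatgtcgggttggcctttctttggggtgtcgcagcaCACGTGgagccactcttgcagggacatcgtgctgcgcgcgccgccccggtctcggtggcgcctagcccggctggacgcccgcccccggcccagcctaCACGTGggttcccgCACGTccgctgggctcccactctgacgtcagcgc
Ldhb: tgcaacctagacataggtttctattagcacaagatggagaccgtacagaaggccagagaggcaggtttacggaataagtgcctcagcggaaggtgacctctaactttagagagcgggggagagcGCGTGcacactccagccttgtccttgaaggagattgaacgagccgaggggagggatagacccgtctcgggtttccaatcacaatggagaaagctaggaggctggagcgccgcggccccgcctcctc

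Among these windows Pgk1 held 2 ACGTG matches and no GCGTG match, and Ldha held 3 and none. Pdha1 held 3 GCGTG matches and Ldhb 1, without ACGTG, and the bases printed for Dld, Dlat and Aldoc held neither. Aldoc and Ldha have 2 RefSeq windows each, and both genes hold GCGTG in bases that are not printed here. RefSeq promoters were at hand for 31 of the 33 members, all but Slc2a3 and Slc16a7. In the 250 bases before a start site, ACGTG stood in 15 of these 31 genes (48.4%), against 18.5% of 27025 mouse genes, and GCGTG in 20 (64.5%), against 30.9%. A gene can have several windows. Per window, ACGTG stood in 39.6% of those of members against 16.6% of all 32851, and GCGTG in 52.1% against 28.2%. The member windows were richer in G and C, with a median of 61.6% over 48 windows against 52.4% over all. Among windows with at least 60% G and C, ACGTG was found in 16 of 28 member windows (57.1%) and in 23% of all 9178. GCGTG was not compared at a like share of G and C. A match is a description of the letters and does not show binding of a factor, and its relation to the fold changes was not tested.

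Levels per kb of the principal transcript spanned 1292-fold. Gapdh (28559 normalized read counts per kb) and Aldoa (28109) stood at the top, followed by Pkm (15593), Eno2 (10708), Ldhb (10340) and Eno1 (9655). At the bottom were Slc16a7 (48.1), Slc16a3 (30.6) and Hk2 (22.1). Of 32 neighboring pairs in this order, 17 had ranges over the 6 mice that did not overlap, and 15 had ranges that did, among them Gapdh and Aldoa, Eno2 and Ldhb, and Pgk1 and Ldha. The 15 highest ranks were held by glycolytic enzymes and lactate dehydrogenases, and the transporters, carriers and kinases stood below them. With the merged exons of all transcripts as length, only Slc2a1 and Mpc2 moved by more than 5 ranks.

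**Figure D3:**
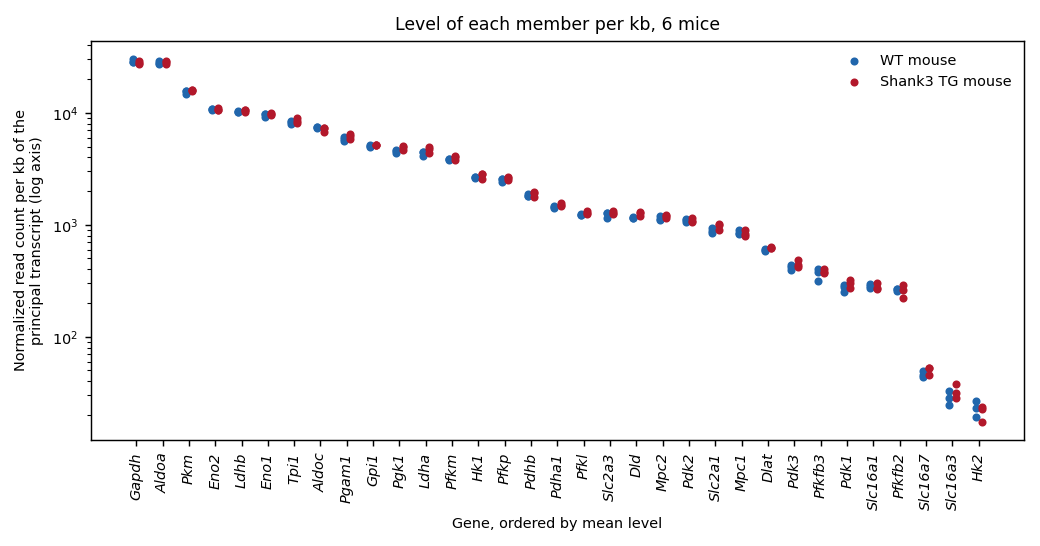
Each point is a mouse (blue WT, red TG), plotted as normalized read count per kb of the principal transcript on a log axis, with genes ordered by mean level from Gapdh at 28559 to Hk2 at 22.1. Points of both groups lie together for each gene, and the spread widens for the genes of lowest level.

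Glucose enters brain cells mainly through GLUT1, encoded by Slc2a1 and known from endothelium and astrocytes, and GLUT3, encoded by Slc2a3 and known from neurons. The normalized read counts of Slc2a1 were 3238, 3291 and 2938 in TG mice 1, 2 and 3, compared with 2738, 2852 and 3067 in WT mice. TG mouse 3 lay below WT mouse 3, so the groups overlapped, and the log2 fold change was 0.13 (SE 0.06, limma unadjusted P = 0.057). Slc2a3 ranged from 4940 to 5272 in TG mice and from 4564 to 5032 in WT mice, with a log2 fold change of 0.06 (SE 0.05). Per kb Slc2a3 made up 55.3% to 59.6% of the pair in the 6 mice, but with the merged exons of all transcripts as length its share was 42.1% to 46.5%, so their order depends on the transcript assumed. Summed endothelial and mural markers, led by Rgs5, overlapped between the groups (13749 to 14005 in TG mice, 12729 to 15436 in WT mice).

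Hexokinase commits glucose to the cell. Hk1, the brain form that binds mitochondria, held 99.0% to 99.4% of the pair per kb in each mouse and differed by 0.05 on the log2 scale (SE 0.05). Hk2, the form known from muscle and induced cells, had 96.1, 130 and 126 normalized read counts in TG mice, compared with 105, 146 and 128 in WT mice. Its difference of -0.10 had an SE of 0.16, the largest SE among the members, and its direction turned when TG mouse 1 or WT mouse 2 was left out.

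The 9 members of upper glycolysis act between glucose-6-phosphate and glyceraldehyde-3-phosphate. Gpi1, the isomerase, and the phosphofructokinase subunits Pfkl, Pfkm and Pfkp had log2 fold changes between 0.03 and 0.06, each with an SE of 0.04 or 0.05. Pfkm, the muscle-type subunit, gave 50.2% to 51.3% of the phosphofructokinase level per kb, Pfkp, the platelet type, 32.3% to 33.8%, and Pfkl, the liver type, 16.0% to 16.6%. Per kb of merged exons Pfkm gave 69.0% to 69.7% and Pfkp 15.7% to 16.7%, so the order held and the share of Pfkp did not. Pfkfb2 and Pfkfb3 make and break fructose-2,6-bisphosphate, the activator of phosphofructokinase. Pfkfb2 ranged from 988 to 1288 in TG mice and from 1141 to 1189 in WT mice, and Pfkfb3 from 1731 to 1869 in TG mice and from 1452 to 1878 in WT mice, so that both overlapped between the groups. Triose phosphate isomerase, Tpi1, differed by 0.05 (SE 0.05).

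Aldolase cuts the sugar into trioses. Aldoc, the brain aldolase enriched in astrocytes, was the member that lay lower in TG mice without overlap, with 20313, 20238 and 18863 normalized read counts in TG mice 1, 2 and 3 compared with 20523, 20670 and 20938 in WT mice. TG mice 1 and 2 were close to the lowest WT mouse, and TG mouse 3 was the lowest of the 6. The log2 fold change was -0.07 (SE 0.05, limma unadjusted P = 0.209), and -0.03 without TG mouse 3. Aldoa, the more abundant aldolase, differed by 0.01 (SE 0.05). It made up 78.6% to 80.8% of the pair per kb, and 69.1% to 71.9% per kb of merged exons. The within-mouse ratio of Aldoc to Aldoa was 0.07 log2 units lower in TG mice (SE 0.06, exact permutation P = 0.2). The summed astrocyte markers, led by Slc1a2, overlapped between the groups (129386 to 134938 in TG mice, 127695 to 135038 in WT mice). Of the 10 genes 6 were lower in TG mice, with a median log2 fold change over the list of -0.05. At an unadjusted limma P under 0.05, 1 gene was lower (10%, beside 2.33% of all genes tested). The part of these markers in the Aldoc value was not tested.

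In lower glycolysis the triose phosphates are turned into pyruvate. Gapdh, whose enzyme makes bisphosphoglycerate and which served as the reference gene of the study's PCR, had 41622, 39537 and 38996 normalized read counts in TG mice, compared with 40040, 43037 and 40086 in WT mice. Its groups overlapped, and the log2 fold change was -0.04 (SE 0.06, 95% interval -0.16 to 0.09). Pgk1, the kinase that makes the first ATP of the pathway, lies on chromosome X (106187100 to 106203699, plus strand, GRCm38). It had 9136, 8575 and 8969 normalized read counts in TG mice, compared with 8412, 8400 and 7906 in WT mice. Each TG mouse lay above each WT mouse. The log2 fold change was 0.11 (7.94%, SE 0.05, limma unadjusted P = 0.042, adjusted P = 0.971).

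Pgk1 passed an unadjusted limma P of 0.05 when TG mouse 2 or WT mouse 1 was left out, and not when any of the other 4 mice was. Its processed copy Pgk1-rs7 was counted at 1.17% of the Pgk1 level. Pgam1, the mutase after it, differed by 0.07 (SE 0.05), and its copy Pgam1-ps2 stood at 1.80% of its level. Reads that fit a gene and its copy could have been counted for either or left out. Eno1, the enolase of most cells, Eno2, the neuronal enolase, and Pkm, the pyruvate kinase, differed by 0.04, 0.01 and 0.04. Eno2 gave 51.5% to 54.0% of the enolase pair per kb, and 62.6% to 64.9% per kb of merged exons.

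Lactate dehydrogenase subunits differ in the direction they are held to favor, Ldha toward lactate and Ldhb toward pyruvate. Ldha had 8677, 7721 and 8307 normalized read counts in TG mice, compared with 7815, 7897 and 7312 in WT mice. TG mouse 2 lay below WT mice 1 and 2, so the groups overlapped (log2 fold change 0.10, SE 0.06, limma unadjusted P = 0.096). Ldhb ranged from 13227 to 13849 in TG mice and from 13220 to 13621 in WT mice and differed by 0.02 (SE 0.04). Ldhb gave 68.3% to 71.1% of the pair per kb, and 77.0% to 79.3% per kb of merged exons. The ratio of Ldhb to Ldha was 0.08 log2 units lower in TG mice (SE 0.06, exact permutation P = 0.3).

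The monocarboxylate transporters were among the members of lowest level. Slc16a1, which encodes MCT1 of endothelium and glia, gave 76.0% to 79.7% of the transporters per kb and differed by -0.02 (SE 0.07). Slc16a7, which encodes the neuronal MCT2, had 502, 579 and 573 normalized read counts in TG mice, compared with 478, 541 and 499 in WT mice, a difference of 0.12 (SE 0.08). Slc16a3, which encodes MCT4 of astrocytes and glycolytic cells, had 164, 137 and 123 in TG mice, compared with 142, 106 and 124 in WT mice. Its log2 fold change of 0.19 was the largest with all 6 mice, with an SE of 0.15, a 95% interval from -0.14 to 0.52 and overlapping groups. It was 0.08 without TG mouse 1 or WT mouse 2, below Slc16a7 (0.19 and 0.17), and 0.28 without TG mouse 3 and 0.29 without WT mouse 1.

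The genes of pyruvate entry included 3 of the 4 members that were higher without overlap. Mpc1 and Mpc2, which pair to form the mitochondrial pyruvate carrier, differed by -0.02 (SE 0.07) and 0.05 (SE 0.06). Mpc2 gave 55.8% to 60.1% of the pair per kb of the principal transcripts but 27.7% to 31.3% per kb of merged exons, so their order depends on the length used. Of the pyruvate dehydrogenase complex, Dld, the E3 dihydrolipoamide dehydrogenase that the complex shares with other oxoacid dehydrogenases, had 3046, 3280 and 3260 normalized read counts in TG mice, compared with 2987, 2953 and 2939 in WT mice. TG mouse 1 lay just above WT mouse 1, and TG mice 2 and 3 lay further up. The log2 fold change was 0.11 (7.90%, SE 0.05, limma unadjusted P = 0.041, adjusted P = 0.971). Among the fits with 1 mouse left out, Dld passed an unadjusted P of 0.05 only in that without TG mouse 1. Dld lies on chromosome 12 (31331277 to 31351453, minus strand).

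Pdha1, the E1 alpha subunit encoded on chromosome X, had 4272, 4194 and 4425 normalized read counts in TG mice, compared with 4093, 4167 and 4013 in WT mice. TG mouse 2 exceeded WT mouse 2 by little, and the log2 fold change was 0.07 (SE 0.04, limma unadjusted P = 0.141). Dlat, the E2 acetyltransferase, had 2493, 2553 and 2488 in TG mice, compared with 2433, 2427 and 2355 in WT mice, with a log2 fold change of 0.06 (SE 0.04, limma unadjusted P = 0.191). Pdhb, the E1 beta subunit, overlapped (2705 to 2940 in TG mice, 2708 to 2870 in WT mice) and differed by 0.04 (SE 0.05). All 4 subunits were thus higher on average in TG mice, none of them past the adjusted threshold. Exon bases of Pdha1 are shared with Map3k15 on the opposite strand (16.1% of its exon bases, mean of Map3k15 64.8), and the library kit does not mark strand.

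The kinases Pdk1, Pdk2 and Pdk3 phosphorylate the complex and stop it. Pdk2 gave 58.8% to 61.9% of the 3 kinases per kb, Pdk3 22.6% to 26.3% and Pdk1 13.9% to 17.7%. Pdk1, which hypoxia induces, differed by 0.12 (SE 0.07), Pdk3 by 0.09 (SE 0.07) and Pdk2 by -0.01 (SE 0.05), all with overlapping groups.

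Ratios of isoenzymes or subunits within a mouse do not depend on the scaling of the library. Among 11 such pairs none separated TG from WT mice, and exact two-sided permutation P values ran from 0.2 to 1 (Benjamini-Hochberg over the 11 pairs, 0.66 for 10 of them and 1 for Pfkp/Pfkm). The smallest P values, 0.2, belonged to Aldoc/Aldoa and to Pdk3/Pdk2, which was 0.10 log2 units higher in TG mice (SE 0.07). With 1 mouse left out, the Aldoc/Aldoa difference ran from -0.12 (without TG mouse 2) to -0.03 (without TG mouse 3), that of Pdk3/Pdk2 from 0.03 (without TG mouse 2) to 0.14 (without TG mouse 1) and that of Ldhb/Ldha from -0.13 to -0.05. The phosphofructokinase pairs had the smallest differences, -0.0030 for Pfkp/Pfkm (SE 0.03) and 0.02 for Pfkl/Pfkm (SE 0.02).

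**Figure D4:**
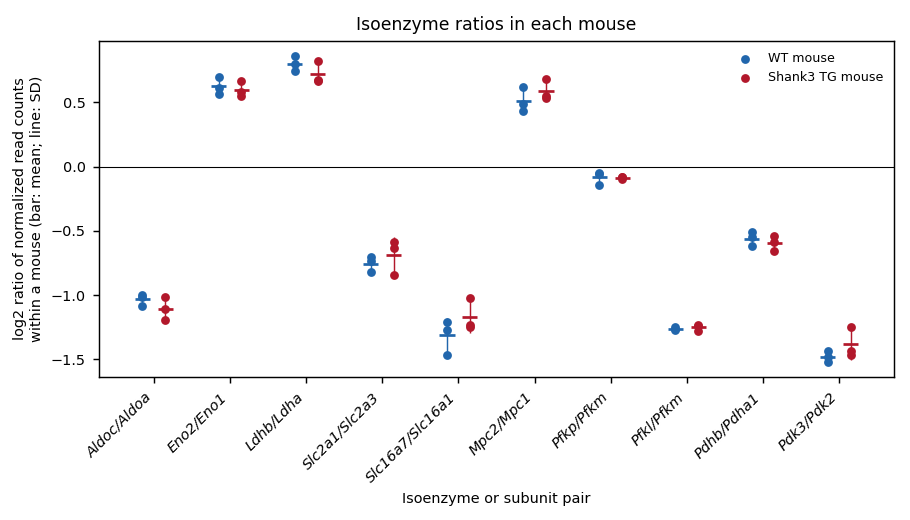
Points give the log2 ratio of normalized read counts of an isoenzyme or subunit pair within a mouse (blue WT, red TG), bars the group mean and vertical lines the SD of 3 mice. The groups overlap for each of the 10 pairs drawn, and the other pair of the 11, Hk2/Hk1, lies off the scale (mean -6.49 in TG mice and -6.34 in WT mice).

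Neighboring pathways were read from lists of other genes, none of whose genes passed an adjusted limma P of 0.05. Of 23 genes of the NADH shuttles and citric acid cycle, 18 were higher and 5 lower in TG mice (median 0.04), 3 passed an unadjusted P of 0.05, all of them higher (13.0%, beside 1.98% of all genes tested), and 8 were higher and 1 lower without overlap (34.8% and 4.35%, beside 5.06% and 5.05%). These genes act in or beside the cycle that pyruvate feeds. Idh3a, a subunit of the NAD-dependent isocitrate dehydrogenase, had 5513, 5330 and 5597 normalized read counts in TG mice, compared with 5199, 4894 and 4831 in WT mice (log2 fold change 0.14, SE 0.05). Sucla2, a subunit of the ADP-forming succinyl-CoA ligase, differed by 0.11 (SE 0.04). Slc25a12, the aspartate-glutamate carrier Aralar of the malate-aspartate shuttle, differed by 0.10 (SE 0.04).

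Of 32 further glycolysis and pyruvate genes 28 were tested, of which 19 were higher and 9 lower (median 0.03). Emb, which encodes embigin, a partner of monocarboxylate transporters, was the 1 gene at an unadjusted P under 0.05 (log2 fold change 0.18, SE 0.08). That is 3.57% of those tested, beside 1.98% of all genes tested that were higher at that level. Of 21 genes of the pentose phosphate and glycogen pathways 12 were higher and 9 lower (median 0.01). Pgm2l1, which makes a glucose bisphosphate, stood at 0.17 (SE 0.07, limma unadjusted P = 0.036) with overlapping groups. It was the 1 gene of these pathways at an unadjusted P under 0.05 (4.76%, beside 1.98%). Of 22 regulators of glycolytic genes 14 were higher and 8 lower (median 0.03), with 1 higher and 3 lower without overlap (4.55% and 13.6%, beside 5.06% and 5.05%). Txnip, a glucose-induced brake on glucose uptake, stood at 0.31 (SE 0.14, limma unadjusted P = 0.049) with overlapping groups. It was the 1 regulator at an unadjusted P under 0.05 (4.55%, beside 1.98% of all genes tested). Egln2, a prolyl hydroxylase that marks HIF for decay, stood at -0.10 (SE 0.05, limma unadjusted P = 0.054) and Mlxipl, which encodes the glucose-sensing factor ChREBP, at -0.28 (SE 0.13, limma unadjusted P = 0.056), both lower in TG mice without overlap. Of 13 other hypoxia-induced genes 10 were higher and 3 lower (median 0.10), none at an unadjusted limma P under 0.05 and none without overlap. Bnip3, a mitophagy receptor, had the smallest P among them (log2 fold change 0.11, SE 0.06, limma unadjusted P = 0.091).

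**Figure D5:**
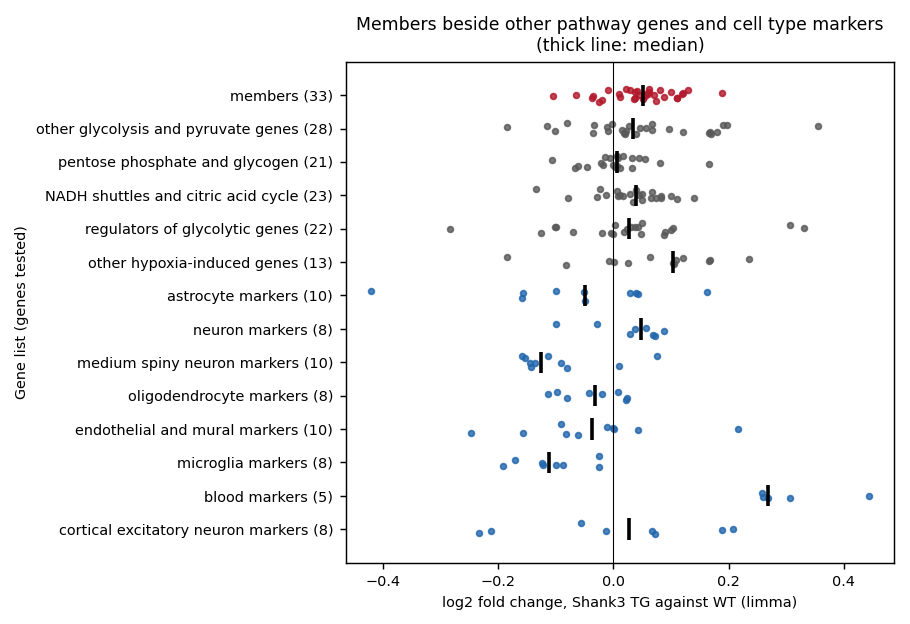
Each point is the log2 fold change of a gene, TG against WT, for the members (red), other pathway lists (gray) and cell type markers (blue), with a thick line at the median of each list. The members center on 0.05, the neuron markers on 0.05 and the medium spiny neuron markers on -0.13, and the choroid plexus list (median 1.30) is off the scale and not drawn.

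Cell type markers give the setting of these values, and none of them passed an adjusted limma P of 0.05. General neuron markers, led by Snap25, had a median log2 fold change of 0.05, with 6 of 8 higher and sums of 152975 to 174286 in TG mice and 155791 to 165015 in WT mice. Medium spiny neuron markers had a median of -0.13, with 8 of 10 lower. Microglia markers, led by Csf1r, were lower for 8 of 8 genes, and their sums did not overlap (11174 to 12059 in TG mice, 12103 to 12667 in WT mice). Of these genes 3 were lower at an unadjusted limma P under 0.05 (37.5%, beside 2.33% of all genes tested). Without overlap 3 were lower (37.5%, beside 5.05%). Blood markers, led by Hbb-bs, were higher for 5 of 5 genes (sums 1868 to 3410 in TG mice, 1805 to 2286 in WT mice). Oligodendrocyte markers, led by Mbp (248190 to 257283 in TG mice, 250600 to 283749 in WT mice), and cortical excitatory neuron markers, led by Slc17a7 (27671 to 39468 in TG mice, 32347 to 37037 in WT mice), overlapped. Choroid plexus markers, led by Ttr, were higher for 9 of 9 genes tested. Of these 3 were at an unadjusted limma P under 0.05 (33.3%, beside 1.98% of all genes tested) and 2 without overlap (22.2%, beside 5.06%). The choroid plexus sum in TG mouse 2 (1901) also exceeded the highest WT sum (909), while that in TG mouse 3 (638) did not. Astrocyte markers had a median of -0.05. No marker of any list was at 0 in all mice, and the part of these differences in the member values was not tested. Without TG mouse 1, which had the highest choroid plexus sum, the median of the members was 0.05 and 28 of 33 were higher.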

How the data were processed

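Striatal RNA was sequenced from 3 Shank3 TG and 3 WT mice. As the methods and the submitters' processing notes state, the authors trimmed reads with Trimmomatic 0.35, mapped them to GRCm38 with TopHat2 2.1.0 and used HTSeq for the reads of each gene. The deposited values are a signal: the authors divided each read count by the DESeq2 size factor of its library. The kit does not mark strand, and the strand setting and annotation release are not given in the sources used here. Exon bases shared with another gene (0.539% to 23.1% of the exon bases of 13 members) and processed copies can therefore shift a count.

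Dividing each library by its smallest value above 0 gave whole reads (within 0.01) for 100% of values, 27689589 to 36647626 per library, with 29430 genes above 0 in some library. Of 46078 rows, 45229 were matched to GENCODE M21. The main test was limma 3.58.1 with trend (R 4.3.3) on log2(value + 1) over 17605 genes with a mean of at least 10, two-sided, with Benjamini-Hochberg adjustment at 0.05, for 3 against 3 mice grouped by their labels. On the recovered reads, DESeq2 1.42.0 called 7 genes and edgeR 4.0.16 called 1. Other alternatives were limma-voom, DESeq2 with a prior and a fitted null, TMM, library totals, other filters (none, or a minimum mean of 50), pseudocounts of 0.5 and 5, a replicate block and each mouse left out. Ratios within a mouse were compared by exact permutation tests (scipy 1.17.1). Levels per kb used the principal transcript of M21. The limma and edgeR fits were run on simulated counts with 1 dispersion for all genes, where 200 of 17605 genes were changed. The changes were 1 or 0.5 log2 units in either direction. With limma 100% and 86% of them were recovered, and 4 unchanged genes were called. Shifts as small as those of the members were not simulated, and the other fits were not run on these counts.

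The members and the lists of other genes were chosen with earlier results of these data known. All members may be named. Values in every mouse were to be given for members at an unadjusted P under 0.05, those without overlap and Gapdh, with up to 3 genes of smallest P from each other pathway list and, from each marker list, its sum and most abundant gene. Values in every mouse for other members, and genes that share exons or are copies, were added after values were seen.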

Additional observations from a re-analysis of the deposited data

How the results depend on the processing

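No member was called under any of the 17 alternatives, where the smallest adjusted P of a member was 0.613. Over all genes, DESeq2 called 7, DESeq2 with a prior and a fitted null 15 and the fit without a filter 5. At an unadjusted P under 0.05, DESeq2 gave 0 members (beside 2.45% of all genes). DESeq2 with a prior and a fitted null gave 4 (Pgk1, Slc2a1, Dld and Ldha, beside 6.07% of all genes), with a median log2 fold change of the members of 0.0382. The prior of that fit draws fold changes toward 0, and its P values use a spread fitted to the central 75% of the test statistics. The part of each step in these values was not tested.

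With each mouse left out in turn, 1 to 2 genes and 0 members were called. Members at an unadjusted P under 0.05 numbered 0 without WT mouse 2 (beside 3.71% of all genes tested), 2 without TG mouse 1 (7.53%) and 3 without TG mouse 2 (5.82%). The count was 1 without TG mouse 3 (2.86%), WT mouse 3 (3.33%) or WT mouse 1. Over these fits the share of all genes tested ran from 2.86% to 7.53%, and that without WT mouse 1 lay inside this range. The median log2 fold change of the members was 0.0341 to 0.0537, the lowest without TG mouse 3, and 25 to 28 members were higher in TG mice. Members without overlap numbered 9 without TG mouse 1 (beside 25.6% of all genes tested), 12 without TG mouse 2 (21.2%) and 10 without TG mouse 3 (17.0%). They numbered 7, 6 and 8 without WT mice 1, 2 and 3 (20.1%, 19.6% and 18.4%). Fewer mice give more genes without overlap. Of 561 member fold changes under the alternatives, 545 kept their direction and side of the threshold. The other 16, in 8 members, turned direction with 1 mouse left out, over ranges of -0.23 to 0.0317 for Hk2, -0.13 to 0.0650 for Pfkfb2, -0.0283 to 0.16 for Pfkfb3, -0.0147 to 0.0382 for Aldoa, -0.0125 to 0.0271 for Eno2, -0.0842 to 0.0107 for Slc16a1, -0.0684 to 0.0168 for Mpc1 and -0.0452 to 0.0108 for Pdk2. The ratio difference of Eno2/Eno1 ran from -0.0616 to 0.00894 and that of Pfkp/Pfkm from -0.0330 to 0.0149.

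Deviations from the group means correlated little between same-numbered mice (r = 0.047, 0.016 and 0.093). With 3 mice a group this cannot show whether the numbers pair the mice. With the replicate block 1 gene and 0 members were called, 2 members had an unadjusted P under 0.05 (beside 5.82% of all genes), and the median was 0.05. Genes with a mean of at least 1000 as background and merged exons as length were chosen after seeing the data. With 3 mice a group, small shifts in Hk2, Slc16a3 and Slc16a7 are the least certain.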
